A study of Mus musculus with 28 samples.

Results

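Potassium channel genes were followed across the CA1 field of the mouse hippocampus as every gene in the count files whose symbol starts with Kcn. Kcnj8 and Kcnj13, which mark pericytes and choroid plexus, and 5 antisense or overlapping transcript entries were left out. This left 92 genes of the 48709 counted, in 21 subfamilies, and all 92 were annotated as protein coding. The libraries came from CamkdeltaC transgenic mice and their wildtype littermates at 3 months of age, of both sexes. They formed 3 groups: 10 wildtype libraries with vehicle, 9 transgenic with vehicle and 9 transgenic with vorinostat. Vorinostat, an inhibitor of histone deacetylases, or vehicle was given in the drinking water for 4 weeks from the age of 2 months. Mice of this transgene are known as a heart failure model in which a calcium and calmodulin dependent kinase is made in heart muscle, while the labels do not name its promoter. A wildtype group on vorinostat was not analysed here, and nothing in the labels ties a library to its own mouse. The p-values therefore refer to the variation among these samples, which may be technical.

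Potassium channels let potassium leave the cell, which holds the resting potential, ends each action potential and sets how readily a neuron fires again. The genes encode pore-forming subunits, which gather into channels opened by voltage, calcium, sodium, G proteins or other signals, and accessory subunits that bind the pore and change its gating or place in the membrane. In CA1 pyramidal neurons they shape the dendritic A-type current, the M-current that brakes repetitive firing and the afterhyperpolarization, and in astrocytes an inward rectifier takes up potassium released by active neurons.

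The libraries held 20230085 to 33191857 counts. All 8 markers of CA1 pyramidal neurons were counted, and their summed level ran from 4235 to 6579 CPM, counts scaled to a common library total, over the 28 libraries. Camk2a, at a mean of 4185 CPM in wildtype vehicle, made up most of this sum. Mitochondrial genes held 6.39 to 7.48% of counts in 4 libraries, and 2.84 to 4.11% in the remaining 24. The 4 were vorinostat 6, 7 and 9 and wildtype vehicle 2. The summed level of the potassium channel genes also differed along this split, so the fold changes with vorinostat are followed by their values without the 4 libraries. In dissected tissue, fewer cells of a type and less RNA per cell cannot be told apart.

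The stretch before a gene's start gave a first view of how the family divides. RefSeq promoter windows on build GRCm38.p6 were matched for 67 of the 92 genes. For 70 of the 92 windows of these 67 genes, 30 bases past the start were found in a transcript of the gene. CG dinucleotides were counted in the 250 bases before the start, taking the highest count where a gene had several starts. The 55 matched genes that passed the low-count filter had a median of 14 CG dinucleotides. The 12 matched genes under the filter had a median of 3.5, and the 27025 genes with a window had a median of 6. Counts of 10 or more were found in 36 of the 55 (65.5%), in 1 of the 12 (8.33%) and in 40.2% of all genes. All genes with a window were not divided by the filter, so whether this difference is particular to potassium channel genes was not tested. Inward rectifier genes of the Kcnj subfamily, 4 in number, are printed 5′ to 3′ because they span this range. The capitals mark each CG dinucleotide. Kcnj10, at chr1:172340960-172341209 on the plus strand, has 17, and Kcnj4, at chr15:79505242-79505491 on the minus strand, has 35. Kcnj9, at chr1:172329323-172329572 on the minus strand, has 5, and Kcnj1, at chr9:32393735-32393984 on the plus strand, has 2. The Kcnj1 window lies inside the annotated gene, chr9:32372493-32399197, before an internal start.
Kcnj10: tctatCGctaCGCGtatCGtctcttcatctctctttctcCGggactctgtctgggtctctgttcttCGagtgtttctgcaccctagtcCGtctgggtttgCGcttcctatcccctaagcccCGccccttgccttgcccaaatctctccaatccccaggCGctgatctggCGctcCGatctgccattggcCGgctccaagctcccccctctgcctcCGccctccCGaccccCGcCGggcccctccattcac
Kcnj4: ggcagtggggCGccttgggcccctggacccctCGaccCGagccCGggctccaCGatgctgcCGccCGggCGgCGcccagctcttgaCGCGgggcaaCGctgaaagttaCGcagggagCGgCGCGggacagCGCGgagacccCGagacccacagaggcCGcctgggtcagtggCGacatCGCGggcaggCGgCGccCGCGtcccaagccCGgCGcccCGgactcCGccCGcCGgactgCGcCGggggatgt
Kcnj9: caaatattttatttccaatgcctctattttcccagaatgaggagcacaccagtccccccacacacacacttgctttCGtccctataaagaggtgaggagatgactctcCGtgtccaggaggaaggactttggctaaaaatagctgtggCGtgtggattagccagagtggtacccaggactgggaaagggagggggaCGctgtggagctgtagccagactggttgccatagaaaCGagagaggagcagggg
Kcnj1: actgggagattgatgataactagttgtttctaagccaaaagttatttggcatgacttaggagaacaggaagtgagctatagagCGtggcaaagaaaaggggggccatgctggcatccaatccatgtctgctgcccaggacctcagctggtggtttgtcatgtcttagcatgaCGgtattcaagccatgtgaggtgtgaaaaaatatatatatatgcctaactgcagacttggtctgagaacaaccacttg

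The first 3 of these genes were the highest of the subfamily in CA1, whereas Kcnj1, known from the kidney tubule, had 1 count over all 28 libraries. Kcnj9 shows that few CG dinucleotides did not always go with a low level. Among the genes with a window, TATAAA was found on either strand in 2 of 67 (2.99%) against 14.3% of all genes, and Kcnj9 is 1 of the 2. GGGCGG, also searched on both strands and containing a CG itself, was found in 41 of 67 (61.2%) against 35.4% of all genes. It was in 37 of the 55 genes that passed the low-count filter (67.3%) and in 4 of the 12 under it (33.3%). All genes were not divided by the filter here either, so whether the TATAAA and GGGCGG shares are particular to potassium channel genes was not tested. These matches are letters in a window of 250 bases and were not tested as binding sites.

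**Figure D1:**
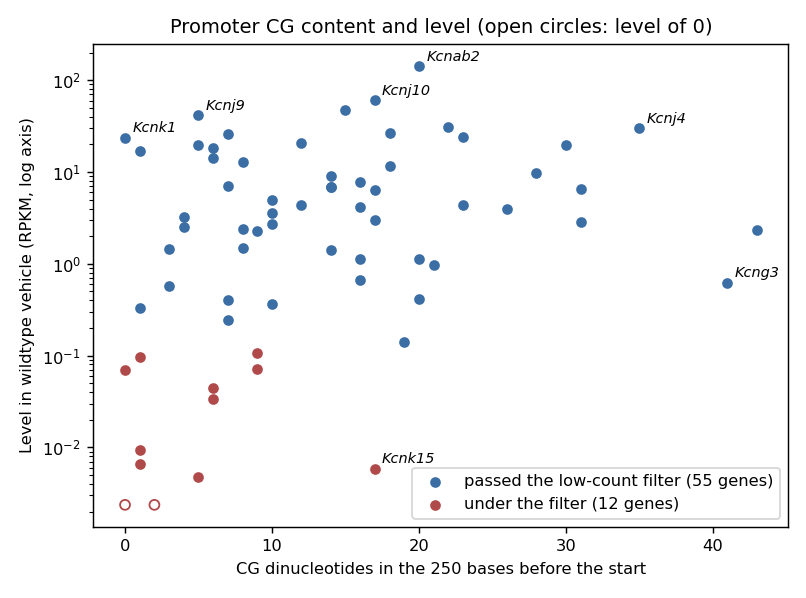
CG dinucleotides in the 250 bases before the start of 67 potassium channel genes (horizontal axis) against the mean length-scaled level in the 10 wildtype vehicle libraries (vertical axis, RPKM, log scale). Blue points passed the low-count filter and red points did not, and open circles are levels of 0, drawn at the foot of the axis. Of the genes under the filter, Kcnk15 alone had 10 or more CG dinucleotides.

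Of the 92 genes, 78 passed the low-count filter and were tested, 13 were counted but stayed under it, and Kcnk16 had 0 counts in all 28 libraries. No gene under the filter had more than 30 counts in any library. To compare genes, levels are given per length, as CPM per kilobase of merged exons (RPKM), as mean ± SD over the 10 wildtype vehicle libraries unless stated. On this scale 64 genes were at 1 RPKM or more, 40 at 5 or more and 29 at 10 or more. The summed level of the 92 genes was 961 ± 31.2 RPKM. Both the inward rectifiers (Kcnj, 19.6% of the sum) and the beta subunits (Kcnab, 18.8%) outweighed every other subfamily, and their ranges overlapped. The KChIP genes (Kcnip) came to 89.9 ± 5.81 RPKM, the M-current genes (Kcnq) to 79.9 ± 7.46 and the fast delayed rectifiers (Kcnc) to 79.3 ± 8.58, and the ranges of the last pair overlapped. This order depends on the length used. With the longest transcript in place of merged exons, Kcnab (260.5 RPKM) lay above Kcnj (200.2) and Kcnq (133) above Kcnip (112). Of the 78 genes, 9 then moved by over 1.5 times, among them Kcnab1 (35.4 RPKM), Kcnn2 (21.0), Kcnj6 (8.26), Kcnmb4 (4.79), Kcnh3 (38.9), Kcnip4 (21.7) and Kcnip1 (6.62). Kcnc2 in place of Kcnc4 led its subfamily.

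Across the 3 groups the subfamilies kept nearly the same weights. The Kcnj genes held 19.6% of the summed level in wildtype vehicle, 19.8% in transgenic vehicle and 19.8% with vorinostat, and the Kcnab genes 18.8, 18.9 and 18.5%. As summed levels, Kcnq stood at 79.9 ± 7.46, 80.2 ± 4.63 and 75.1 ± 12.3 RPKM, and Kcnc at 79.3 ± 8.58, 81.0 ± 6.42 and 71.3 ± 14.2 RPKM in the same order of groups. Without the 4 libraries of high mitochondrial share, the vorinostat mean was 83.1 RPKM for Kcnq and 80.1 for Kcnc, and the wildtype mean 81.5 and 81.2. The leak channels (Kcnk) were at 50.1 ± 1.93, 52.2 ± 1.78 and 49.7 ± 2.54 RPKM. In each of these subfamilies the ranges of the 3 groups overlapped.

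**Figure D2:**
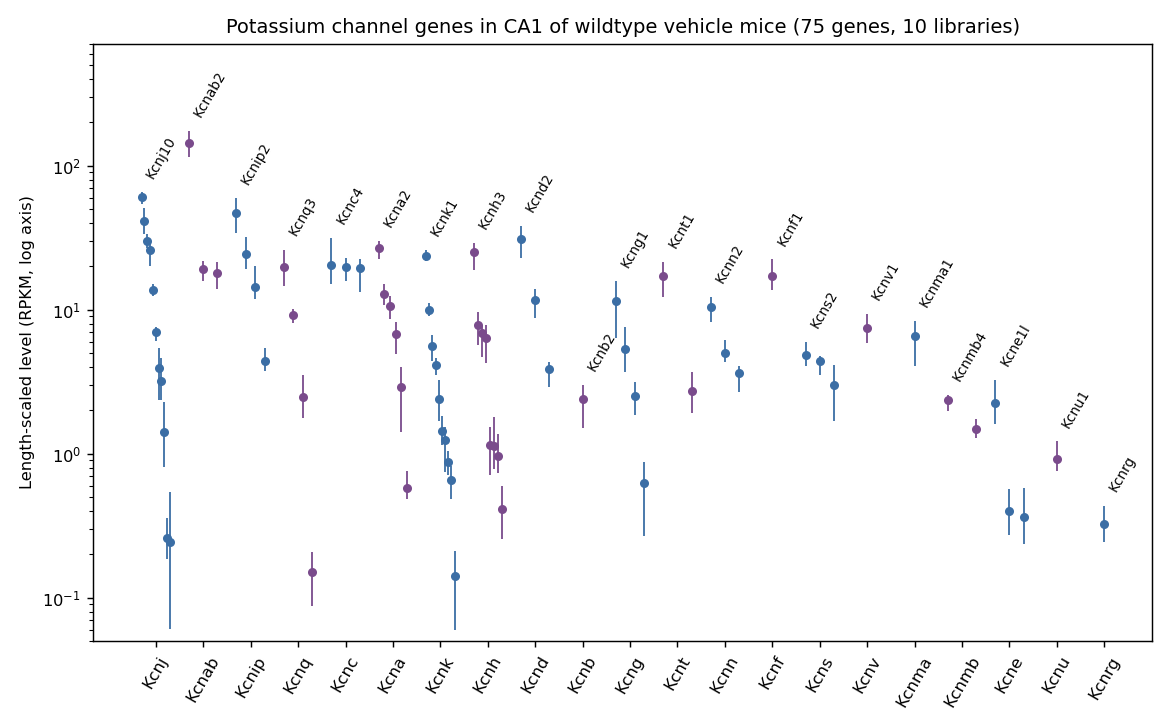
Length-scaled level of 75 tested potassium channel genes in wildtype vehicle CA1 (vertical axis, RPKM, log scale), by subfamily in order of its summed level. Points are means of 10 libraries, lines run from the lowest to the highest library, and the highest point of each subfamily is named. Kcnab2 stands highest at 143 RPKM.

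Among the Kcna, Kcnb, Kcnc and Kcnd pores, all opened by voltage, Kcnd2, the main pore of the dendritic A-type current, was the highest at 31.1 ± 4.03 RPKM. Its relatives Kcnd3 and Kcnd1 were at 11.7 ± 1.69 and 3.86 ± 0.407 RPKM. Kcna2, a low-threshold channel of axons, was at 26.6 ± 2.47 RPKM and held 44.0% of its subfamily. Kcna6 and Kcna1, which encode further axonal subunits, followed at 12.9 ± 1.44 and 10.6 ± 1.40 RPKM, and Kcna4, an inactivating subunit of the same subfamily, was at 6.83 ± 1.03. Of the Kcna6 exon bases, 39.6% also lie in an antisense gene, and the library kit does not mark strand, so its level is uncertain. Among the Kcnc genes, known for fast repolarization, Kcnc1, Kcnc2 and Kcnc4 lay close together, from 19.5 ± 2.48 RPKM for Kcnc1 to 20.6 ± 5.61 for Kcnc4, and their ranges overlapped.

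The silent subunits, which form no channel alone and join Kcnb pores, were also present. Kcnf1 was at 17.1 ± 3.05 RPKM and Kcng1 at 11.5 ± 2.74 RPKM, while Kcnv1 was at 7.42 ± 1.29. The Kcns genes ran from 2.98 ± 0.777 RPKM for Kcns1 to 4.87 ± 0.499 for Kcns2. Kcnv2, known from photoreceptors, stayed under the filter. Kcnrg, whose product interferes with the assembly of voltage-gated channels, was at 0.327 ± 0.062 RPKM.

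The accessory subunits included the gene with the highest level of all. Kcnab2, a cytoplasmic beta subunit of Kcna channels, was at 143 ± 16.8 RPKM, with 115 in the lowest and 173 in the highest wildtype library, and the next gene, Kcnj10, reached 65.2 at most. Kcnab3 and Kcnab1 were at 19.2 ± 1.87 and 18.1 ± 2.32 RPKM and overlapped in range. Of the KChIP genes, calcium-binding partners of Kcnd channels, Kcnip2 was at 46.9 ± 9.20 RPKM, Kcnip3 at 24.4 ± 3.65, Kcnip4 at 14.3 ± 2.35 and Kcnip1 at 4.38 ± 0.532. The single-span Kcne subunits were low, led by Kcne1l at 2.25 ± 0.556 RPKM, and Kcne1 was close to 0 at 0.0013 RPKM. Kcne2, known from choroid plexus, stayed under the filter, and its highest values, 0.907 and 0.799 CPM in vorinostat 5 and 6, stood in the libraries with the highest summed choroid plexus markers, 108 and 75.9 CPM. The lowest to highest sum of these 8 markers, none of them at 0, was 11.0 to 36.2 CPM in wildtype vehicle, 16.2 to 57.1 in transgenic vehicle and 8.71 to 108 in vorinostat.

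Kcnq3, a subunit of the channel behind the M-current of hippocampal neurons, was at 19.9 ± 3.40 RPKM. Kcnq5, a further subunit of this current, was at 9.15 ± 0.604 RPKM, whereas Kcnq1, known from heart and epithelia, was at 0.151 ± 0.0381. In the Kcnh subfamily Kcnh3 led at 25.0 ± 2.59 RPKM, followed by the ERG genes Kcnh7 at 7.85 ± 1.29 and Kcnh2 at 6.88 ± 0.820, and by Kcnh1, the EAG channel, at 6.35 ± 1.02. The ranges of Kcnh7, Kcnh2 and Kcnh1 overlapped.

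Among the channels opened by ions inside the cell, the sodium-activated Kcnt1 was the highest at 17.2 ± 2.75 RPKM. Kcnn2, a small-conductance calcium-activated channel of the afterhyperpolarization, was at 10.4 ± 1.39 RPKM, ahead of Kcnn1 at 4.96 ± 0.522 and Kcnn3 at 3.61 ± 0.445. Kcnma1, the large-conductance calcium-activated pore, was at 6.60 ± 1.31 RPKM. Its partner Kcnmb4 was at 2.34 ± 0.236 RPKM, but 31.5% of its exon bases are shared with other genes. Kcnu1, known from sperm, was at 0.910 ± 0.139 RPKM.

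Kcnj10, the inward rectifier of astrocytes, led its subfamily at 61.0 ± 3.22 RPKM. It also varied little between wildtype libraries, with a coefficient of variation of 5.28% against a median of 15.3% over the 78 tested genes and 12.4% over all genes tested. Kcnj16, which joins Kcnj10 in glia, was at 7.03 ± 0.512 RPKM. The G protein gated subunits differed widely, with Kcnj9 at 41.4 ± 5.69 RPKM, Kcnj3 at 26.0 ± 3.29, Kcnj6 at 3.92 ± 1.07 and Kcnj5 at 0.245 ± 0.172. Antisense exons cover 31.1% of the Kcnj3 exon bases. Kcnj4, a strong inward rectifier of the forebrain, was at 29.9 ± 1.87 RPKM, and Kcnj11, the pore of the ATP-sensitive channel, at 13.8 ± 1.06. The 2-pore leak channels (Kcnk) were led by Kcnk1 at 23.6 ± 1.29 RPKM, followed by Kcnk2, a leak channel opened by membrane stretch and lipids, at 9.87 ± 0.714, and by Kcnk3, an acid-sensitive leak channel, at 5.61 ± 0.737.

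Transgenic and wildtype mice on vehicle were compared to learn how CA1 expression differs in the heart failure model, and none of the 78 potassium channel genes passed the threshold. Most values lay close to 0, with 76 of 78 log2 fold changes within 0.3 of it. The astrocytic Kcnj10, the M-current gene Kcnq3 and the A-type gene Kcnd2 overlapped in range between the groups. The leak channel Kcnk2 and the silent subunit Kcns3 had the smallest p-values.

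In edgeR's quasi-likelihood test with Benjamini-Hochberg adjustment, 0 of 78 genes were called at adjusted p under 0.05, as were 0 of all 17009 genes tested (0%). DESeq2 and limma-voom also called 0 of the 78, and at an unadjusted p under 0.05 both had 1 higher, with 1 and 2 lower. The shares of all genes by these methods are not given here. At an unadjusted p under 0.05, edgeR had 1 gene higher and 1 lower, against 0.67% and 0.664% of all genes. Of the 78, 53 had a positive log2 fold change and 25 a negative, with a median of 0.03, while 50.1% of all genes were positive with a median of 0.00013. Without the 4 libraries of high mitochondrial share 44 of the 78 were positive and 34 negative. The median in that fit was 0.01 over 79 potassium channel genes and 0.0038 over all genes. By subfamily, 9 of 10 Kcnk and 9 of 11 Kcnj genes were positive, and 3 of 4 Kcng genes were negative.

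Kcnk2 (ENSMUSG00000037624; GRCm38 chromosome 1, 189207930 to 189402273, minus strand) had a lowest, median and highest level of 44.3, 47.6 and 54.6 CPM in wildtype vehicle and of 50.4, 54.3 and 57.2 CPM in transgenic vehicle. All 9 transgenic libraries lay above the wildtype mean, while the groups overlapped. Its log2 fold change was 0.15 (SE 0.0527, edgeR p = 0.00699, adjusted p = 0.9998). Antisense exons cover 12.2% of its exon bases, and the count cannot separate the strands.

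Kcns3 (ENSMUSG00000043673; chromosome 12, 11090202 to 11151056, minus strand) was at 11.1, 14.2 and 15.2 CPM in wildtype vehicle and at 9.58, 12.2 and 15.7 in transgenic vehicle, again as lowest, median and highest. The groups overlapped over most of their range, although 1 of 9 transgenic libraries lay above the wildtype mean. The log2 fold change was -0.20 (SE 0.0789, edgeR p = 0.0191, adjusted p = 0.9998).

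The next genes by p also overlapped between groups. Kcnk13, a leak channel of microglia, had a log2 fold change of 0.18 (SE 0.117), and Kcnj2, a strong inward rectifier, one of 0.31 (SE 0.21). Kcnj10 was at 293, 334 and 353 CPM in wildtype vehicle and 300, 359 and 436 in transgenic vehicle (log2 fold change 0.09, SE 0.061). Kcnh5, a relative of Kcnh1, had a value of 0.22 (SE 0.164). On the negative side Kcnt2, a relative of Kcnt1, was at -0.16 (SE 0.124), Kcna4 at -0.09 (SE 0.0723) and Kcna5, another voltage-gated pore, at -0.15 (SE 0.119). Kcnj5, a G protein gated subunit, had the lowest value, -0.92 (SE 0.559). Its levels were 0.282, 1.09 and 2.55 CPM in wildtype and 0.155, 0.294 and 2.70 CPM in transgenic vehicle. The highest value of its group was in transgenic vehicle 7 and the next was 0.75 CPM, and without transgenic vehicle 7 the log2 fold change of Kcnj5 was -1.79. The edgeR adjusted p was 0.9998 for each of these genes. They kept their signs without the 4 libraries of high mitochondrial share, with Kcnj2 at 0.41 and Kcnj5 at -0.81. The 29 genes that lead a subfamily or have a known place in CA1 neurons or glia ran from -0.10 for Kcng1 to 0.15 for Kcnk2.

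**Figure D3:**
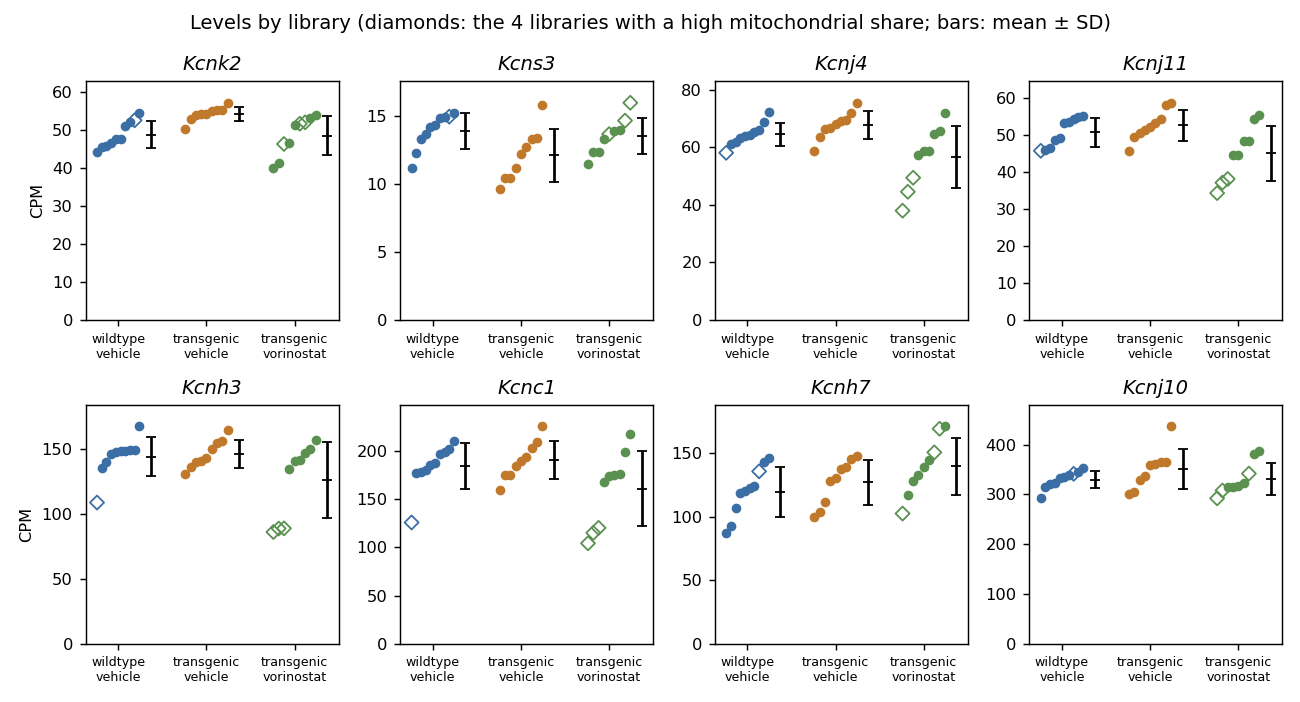
Levels of 8 potassium channel genes in each of the 28 libraries (vertical axes, CPM, from 0), by group and sorted by value within a group. Filled points are single libraries, open diamonds are the 4 libraries with a high mitochondrial share, and bars are the group mean ± SD. For Kcnh3 and Kcnc1 the diamonds lie below all other libraries, and for Kcnk2 they lie among them.

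The comparison of vorinostat with transgenic vehicle asks what the drug does to CA1 expression in the transgenic mice, and again none of the 78 genes passed. The inward rectifiers Kcnj4 and Kcnj11, the leak channel Kcnk2 and the delayed rectifier Kcnc1 were among the genes with the smallest p-values, all with negative log2 fold changes between -0.26 and -0.16. For 34 of the 78 genes the sign was the opposite without the 4 libraries of high mitochondrial share, 3 of which belong to the vorinostat group and none to transgenic vehicle. The share of all genes tested that changed sign was not counted, so whether this is particular to potassium channel genes was not tested.

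By edgeR, 0 of 78 genes were called at adjusted p under 0.05, against 0 of 17009 genes (0%), and the lowest adjusted p among the 78 was 0.345. DESeq2 and limma-voom also called 0, and had 9 lower each at an unadjusted p under 0.05, with 0 and 1 higher. Shares of all genes by these methods are not given here, so the 9 have no background. At an unadjusted p under 0.05 edgeR had 8 of 78 lower and 0 higher, against 6.65% of all genes lower and 7.75% higher. Of the 78 log2 fold changes, 54 were negative and 24 positive, while 49.1% of all genes were negative. The median was -0.07 against 0.0033 over all genes. The fit without the 4 libraries tested 79 potassium channel genes, with a median of 0.01 against -0.0032 over all genes. Of these 79, 4 were lower and 1 higher at an unadjusted edgeR p under 0.05, and of the 78, 34 were negative. The shares of all genes under that p in this fit are not given here, so the 4 and the 1 have no background. With the mitochondrial share as a covariate the median was -0.02. Negative values were found for 7 of 8 Kcnh, 8 of 10 Kcnk, 8 of 11 Kcnj and 5 of 5 Kcnq genes, and without the 4 libraries for 4, 5, 7 and 2 of them.

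Kcnj4 (ENSMUSG00000044216; chromosome 15, 79483714 to 79505241, minus strand) had a lowest, median and highest level of 58.7, 68.0 and 75.4 CPM in transgenic vehicle and of 38.0, 58.5 and 71.8 CPM in vorinostat libraries. Only 1 of 9 vorinostat libraries lay above the transgenic vehicle mean, and the lowest 3 were those with a high mitochondrial share. Its log2 fold change was -0.26 (SE 0.0808, edgeR p = 0.00314, adjusted p = 0.345). Without the 4 libraries it was -0.11 (edgeR p = 0.0452, adjusted p = 0.966).

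Kcnk2 alone of these 4 genes had a value no smaller in size without the 4 libraries. It was at 40.1, 51.4 and 53.9 CPM in vorinostat libraries, and 0 of 9 lay above the transgenic vehicle mean of 54.2 CPM. The log2 fold change was -0.16 (SE 0.0541, edgeR p = 0.00562, adjusted p = 0.345) with all libraries and -0.19 (edgeR p = 0.00373, adjusted p = 0.966) without the 4. The transgenic vehicle libraries serve in both this contrast and the previous one, so the opposite signs of Kcnk2 in the pair are not independent.

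Kcnj11 (ENSMUSG00000096146; chromosome 7, 46093953 to 46100764, minus strand) was at 45.6, 52.1 and 58.6 CPM in transgenic vehicle and at 34.2, 44.5 and 55.4 CPM with vorinostat. The groups overlapped, with 2 of 9 vorinostat libraries above the transgenic vehicle mean. Its log2 fold change was -0.22 (SE 0.0748, edgeR p = 0.00564, adjusted p = 0.345) and -0.10 without the 4 libraries.

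Kcnc1 (ENSMUSG00000058975; chromosome 7, 46396497 to 46438704, plus strand) was at 159.5, 189.9 and 226 CPM in transgenic vehicle and at 104, 174 and 218 CPM with vorinostat. The groups overlapped, with 2 of 9 vorinostat libraries above the transgenic vehicle mean. Its log2 fold change was -0.24 (SE 0.112) with all libraries and -0.05 without the 4. Kcnh3, an ELK channel (ENSMUSG00000037579; chromosome 15, 99224861 to 99242817, plus strand), was at 131.0, 143 and 165 CPM in transgenic vehicle and at 86.0, 141 and 157 CPM with vorinostat. For Kcnh3 the log2 fold change was -0.22 (SE 0.102) with all libraries and -0.02 without the 4. The genes with an unadjusted p under 0.05 also included Kcnh4 and Kcnk6.

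The 5 positive genes with the smallest p were Kcns3, Kcnt2, Kcnj16, Kcna5 and Kcne3. Kcns3 had a log2 fold change of 0.16 (SE 0.0809) and Kcnt2 of 0.25 (SE 0.127), while Kcnj16 was at 0.17 (SE 0.0912). The values were 0.19 (SE 0.121) for Kcna5 and 0.37 (SE 0.235) for Kcne3, an accessory subunit under 2 CPM in every library. Adjusted p in edgeR ran from 0.35 for Kcns3 to 0.405 for Kcne3. With the 4 libraries left out, the values were 0.09 for Kcns3, 0.18 for Kcnt2, 0.06 for Kcnj16, 0.29 for Kcna5 and 0.13 for Kcne3. Kcns3, Kcnt2 and Kcna5 had negative values in transgenic against wildtype vehicle. Both contrasts use the transgenic vehicle libraries, so these opposite signs are not independent.

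For the genes with a known place in CA1, the sign often differed with and without the 4 libraries. The log2 fold change of Kcnq3 went from -0.03 with all libraries to 0.10 without the 4. Kcnt1 went from -0.18 to 0.05 and Kcna1 from -0.14 to 0.04. The same held for Kcnh1 (-0.19 and 0.0017), Kcnj6 (-0.11 and 0.12), Kcng1 (-0.07 and 0.22) and Kcnf1 (-0.08 and 0.12).

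Several genes gave values near 0 with all libraries. Kcnd2 was at -0.05 (SE 0.0767), Kcnn2 at -0.04 (SE 0.0696) and Kcna2 at -0.04 (SE 0.0762), and without the 4 libraries at 0.02, 0.02 and 0.06. Kcnj3 was at 0.02 (SE 0.068), Kcns2 at 0.01 (SE 0.0621), Kcna4 at -0.01 (SE 0.0743) and Kcnmb4 at 0.01 (SE 0.0704). Without the 4 these came to 0.01 for Kcnj3, 0.04 for Kcns2, -0.0012 for Kcna4 and 0.01 for Kcnmb4. Kcnma1 was at 0.01 (SE 0.119) with all libraries and at 0.17 without the 4. Kcnj10 went from -0.08 (SE 0.0626) to -0.05 and Kcnk1 from 0.04 (SE 0.047) to -0.04.

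Kcnab2, the highest gene, was at 718, 820 and 924 CPM in transgenic vehicle and at 603, 715 and 849 with vorinostat, a log2 fold change of -0.15 (SE 0.075, edgeR adjusted p = 0.348) and -0.06 without the 4 libraries. The remaining leaders of subfamilies were Kcnip2 at -0.17 (SE 0.0977), Kcnc4 at -0.24 (SE 0.158) and Kcnv1 at 0.08 (SE 0.106), and the KChIP gene Kcnip4 was at 0.12 (SE 0.097). Without the 4 they stood at -0.08, -0.08, -0.01 and -0.04 in turn. The low genes Kcnu1, Kcne1l and Kcnrg were at 0.11 (SE 0.0937), -0.11 (SE 0.141) and 0.21 (SE 0.194), and without the 4 at 0.03, -0.30 and -0.07.

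**Figure D4:**
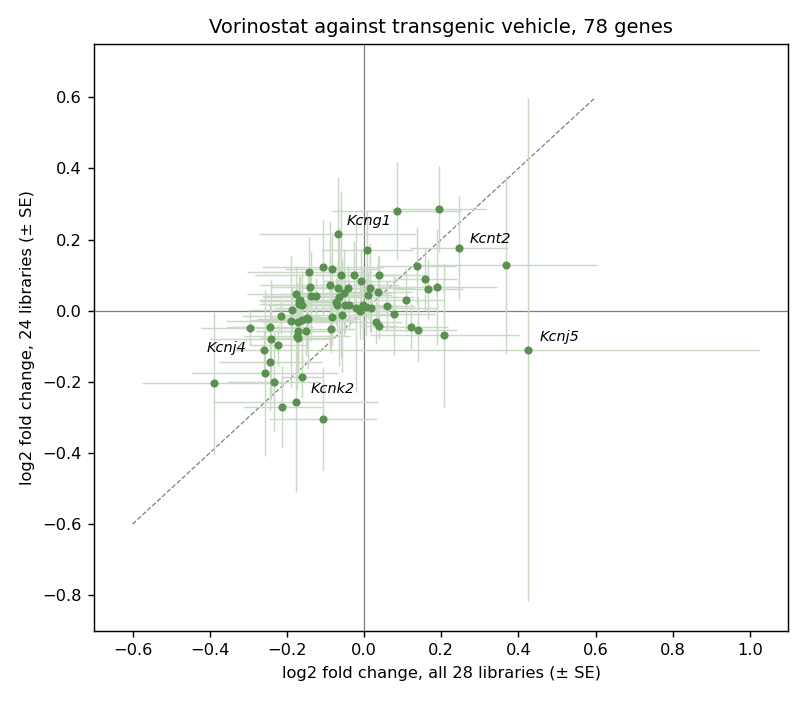
Log2 fold change of vorinostat against transgenic vehicle for the 78 tested potassium channel genes, with all 28 libraries (horizontal axis) and without the 4 libraries of high mitochondrial share (vertical axis), with standard errors as lines. On the dashed line both values are equal. Kcnk2 lies near it, while Kcnj4 is at -0.26 on the horizontal and -0.11 on the vertical axis.

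Of 16 lists of cell type markers, the red blood cell list was the 1 whose summed level did not overlap between the 4 libraries of high mitochondrial share, at 77.4 to 135 CPM, and the other 24, at 18.0 to 57.1 CPM. By group its 5 markers summed to 18.0 to 46.2 CPM in transgenic vehicle, to 36.7 to 135 CPM with vorinostat and to 21.1 to 106 CPM in wildtype vehicle. Of these markers, Hba-a2 was at 0 CPM in all transgenic vehicle libraries and had a median of 0 CPM in both other groups. The 5 markers of oligodendrocyte precursors were at 252 to 258 CPM in the 4 and at 256 to 333 in the others. The 8 microglial markers were at 313 to 370 CPM in the 4 and at 254 to 345 in the others, and none of either list was at 0. The 8 CA1 pyramidal markers, none at 0, were at 4235 to 5207 CPM in the 4 and at 4271 to 6579 in the others, and their ranges in the 3 groups overlapped. This sum mostly follows Camk2a, at a mean of 4185 CPM in wildtype vehicle. The part of the listed cell types in the potassium channel values was not tested.

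The split by mitochondrial share showed in the summed level of the family. Summed over the 92 genes, the level was 780 to 881 RPKM in the 4 libraries with a high mitochondrial share and 941 to 1021 RPKM in the other 24, without overlap. By group the sum was 961 ± 31.2 RPKM (SD, n = 10) for wildtype vehicle, 981 ± 22.0 (SD, n = 9) for transgenic vehicle and 913 ± 97.7 (SD, n = 9) for vorinostat. The delayed rectifier Kcnc1, the ERG channel Kcnh2, the ELK channel Kcnh3 and the sodium-activated Kcnt1 were low in the 4 libraries, and the leak channel Kcnk1 was high. These 4 were set apart by their mitochondrial share and not by a label, so the values are a description.

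For 11 of the 78 genes (14.1%) all 4 libraries lay below all other 24, against 11.2% of all genes. They included Kcnc1, Kcnd1, Kcng1, Kcnh1, Kcnh2, Kcnh3, Kcnk3 and Kcnt1. Kcnc1 was at 104 to 126 CPM in the 4 and at 159.5 to 226 CPM in the others, a log2 ratio of means of -0.70. Kcnh3 was at 86.0 to 109 and at 131.0 to 167 CPM, and Kcng1 at 18.8 to 29.9 and at 32.5 to 73.6 CPM. In the other direction all 4 lay above all 24 for Kcnk1 alone (1.28%, against 9.99% of all genes), at 58.1 to 62.6 against 47.9 to 57.1 CPM. The median log2 ratio was -0.27 over the 78 genes and 0.01 over all genes tested, and 55 of the 78 (70.5%) were negative against 48.5% of all genes.

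**Figure D5:**
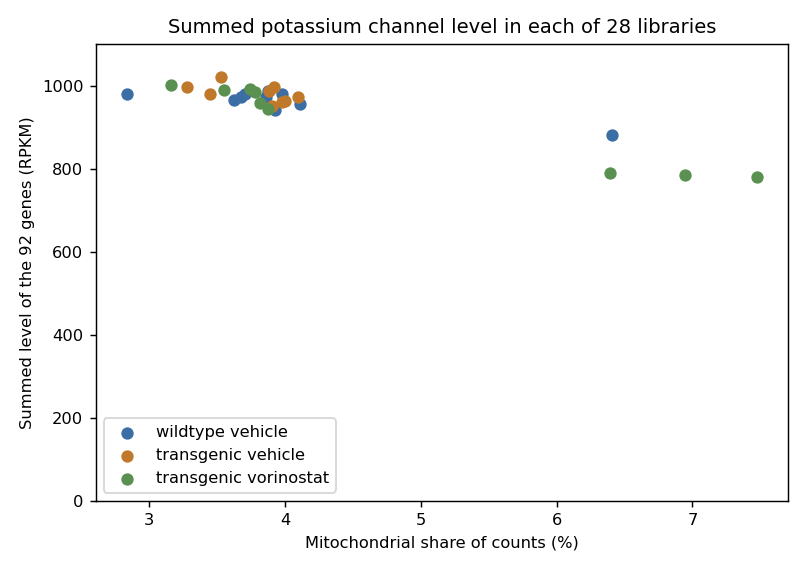
Summed level of the 92 potassium channel genes in each library (vertical axis, RPKM, from 0) against the share of counts on mitochondrial genes (horizontal axis, percent), with colours for the 3 groups. The 4 libraries above 6% lie at 780 to 881 RPKM, below all 24 others.

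The comparison of vorinostat with wildtype vehicle asks how treated transgenic mice stand against untreated controls. None of the 78 genes passed here either. Kcnh7, an ERG channel, had the smallest p among positive genes, and the inward rectifiers Kcnj4 and Kcnj11 and the silent subunit Kcng2 the smallest among negative genes. The vorinostat libraries are those of the preceding contrast, and the wildtype libraries those of the first.

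In edgeR 0 of 78 genes were called at adjusted p under 0.05, against 0 of 17009 genes (0%), and DESeq2 and limma-voom called 0, with 1 higher each and 4 and 6 lower at an unadjusted p under 0.05. At an unadjusted p under 0.05 edgeR had 1 higher and 3 lower, against 6.87% and 5.72% of all genes. For DESeq2 and limma-voom the shares of all genes are not given here. Log2 fold changes were negative for 51 and positive for 27 genes, with a median of -0.04, while 48.3% of all genes were negative. In the fit without the 4 libraries 35 of the 78 were negative and 43 positive, and 28 had the opposite sign. The share of all genes with the opposite sign was not counted. The median in that fit was 0.01 over 79 potassium channel genes and -0.00096 over all genes. With all 28 libraries the median over all genes was 0.0064.

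Kcnh7 was at 86.9, 121 and 146 CPM in wildtype vehicle and at 102, 139 and 171 CPM with vorinostat, as lowest, median and highest. The groups overlapped, with 7 of 9 vorinostat libraries above the wildtype mean. Its log2 fold change was 0.22 (SE 0.0994, edgeR p = 0.0328, adjusted p = 0.385) and 0.24 without the 4 libraries.

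Kcng2 was at 11.0, 14.7 and 22.6 CPM in wildtype vehicle and at 9.88, 13.5 and 16.7 CPM with vorinostat, with 1 of 9 above the wildtype mean. Its log2 fold change was -0.29 (SE 0.13, edgeR adjusted p = 0.385) and -0.24 without the 4 libraries. Kcnj4 and Kcnj11 were at -0.19 (SE 0.0789) and -0.17 (SE 0.0731), and at -0.05 and -0.06 without the 4. Kcnh2 and Kcnh3 were at -0.20 (SE 0.0991) and -0.19 (SE 0.0991), and at -0.05 and -0.03 without them. Among positive genes Kcnip4 was at 0.15 (SE 0.0946), Kcnrg at 0.29 (SE 0.191), Kcnmb4 at 0.08 (SE 0.0689) and Kcnab1 at 0.08 (SE 0.0689). In the fit of the other 24 libraries Kcnip4 was at 0.05, Kcnrg at -0.00027, Kcnmb4 at 0.10 and Kcnab1 at 0.06. Over the 29 leaders and genes with a known place in CA1 the values ran from -0.21 for Kcnc4 to 0.29 for Kcnrg with all libraries, and from -0.21 for Kcne1l to 0.15 for Kcnj6 without the 4.

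A second deposited table, with expression values the authors adjusted on a log scale read here as log2, gave calls that the counts did not. It holds 18014 genes and 80 of the 92, and the terms of the adjustment are not given in the sources used here, so limma could not take them into account. In transgenic against wildtype vehicle 1 of 80 genes was called higher and 1 lower, against 1.52% of all genes higher and 0.688% lower. Kcnj2 was the higher, at 0.68 (SE 0.18, limma adjusted p = 0.0456), and Kcns3 the lower, at -0.25 (SE 0.065, limma adjusted p = 0.0412). With vorinostat against transgenic vehicle 1 of 80 was called lower and 0 higher, against 0.0833% of all genes lower and 0.139% higher. That gene was Kcnj11, at -0.24 (SE 0.0524, limma adjusted p = 0.0445). Against wildtype vehicle 4 of 80 genes were called lower and 0 higher, against 3.96% lower and 9.95% higher of all genes. The 4 included Kcnab2 at -0.19, Kcnk6 at -0.18 and Kcnj11 at -0.16. For these 3 the limma adjusted p ran from 0.0223 for Kcnab2 to 0.0431 for Kcnk6. In the counts these genes had edgeR adjusted p above 0.3 in all 3 contrasts.

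The wider machinery of these channels was read from a list of 44 partner genes, of which 43 were tested and Lrrc52 had 0 counts. It holds auxiliary, anchoring and signalling proteins, such as the dipeptidyl peptidase relatives Dpp6 and Dpp10 of Kcnd channels and the receptors that open G protein gated channels. By edgeR 0 of 43 were called in each of the 3 contrasts. The median log2 fold changes were -0.0021 for transgenic against wildtype vehicle, -0.02 for vorinostat against transgenic vehicle and -0.00012 for vorinostat against wildtype vehicle. Without the 4 libraries of high mitochondrial share these medians were -0.00015, 0.00076 and 0.0077. At an unadjusted p under 0.05 the first contrast had 0 of 43. Vorinostat against transgenic vehicle had 5 of 43 lower and 0 higher, against 6.65% and 7.75% of all genes, and without the 4 libraries 0 lower and 1 higher. Vorinostat against wildtype vehicle had 1 lower and 0 higher, against 5.72% and 6.87% of all genes, and without the 4 libraries 0 in either direction. For the fits without the 4 libraries the shares of all genes are not given here. The 5 were Lrrc26, Amigo1, Gnb2, Abcc8 and Lgi3, named after their values were seen. Amigo1, a partner of Kcnb channels, was at -0.14 (SE 0.0659), and Abcc8, the sulfonylurea receptor that joins Kcnj11, at -0.30 (SE 0.133), each with an edgeR adjusted p of 0.345. Both were closer to 0 without the 4 libraries, at -0.02 and -0.07.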

How the data were processed

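Polyadenylated RNA of dissected CA1 was sequenced as 50 bp single-end reads from TruSeq RNA v2 libraries, which do not mark strand, per the labels. The authors deposited whole-number counts of reads per gene, 1 table a library. Per the submitters' processing notes, the tools were STAR 2.5.2b, featureCounts from Subread 1.5.1 and FastQC 0.11.5, and the build was mm10. For these counts the annotation release, strand setting and handling of multiply matching reads are not given in the sources used here, so the 27 genes that share exon bases with another gene have uncertain counts. The authors also deposited adjusted expression values on a log scale, read here as log2, whose base and terms are not given in the sources used here, and a table of modules with a membership score per gene, deposited by the authors, of which the modules alone were used. The deposited membership p-value was not used.

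Genes were tested in edgeR 4.0.16 (R 4.3.3) by the quasi-likelihood test with TMM scaling and robust fitting, in 1 fit over 28 libraries, after its low-count filter (minimum count 10, minimum total 15), with Benjamini-Hochberg adjustment over 17009 genes and a threshold of 0.05. Alternatives used DESeq2 1.42.0 and limma 3.58.1, other filters and scalings, and left-out libraries. CPM use the TMM-scaled totals, and RPKM the merged exon length in GENCODE of GRCm38. The fits were tested on simulated data. The genes and lists were chosen with earlier results of these data known. Levels are given for any gene. Fold changes are given for genes past the threshold, the 5 positive and 5 negative genes of smallest p in each contrast, and 29 genes that lead a subfamily or have a known place in CA1. The last are printed singly for vorinostat against transgenic vehicle and as a range elsewhere. Some genes are not reported here. No wildtype vorinostat group was analysed here.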

Additional observations from a re-analysis of the deposited data

Results flagged for a closer look

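Within-group values were searched for a lowest or highest library far from the rest, by Dixon's criterion at 95%, in 129 groups of 43 potassium channel genes. This gave 8 results, while chance flags about 1 in 20 groups. Wildtype vehicle 2, a library with a high mitochondrial share, held 3 of them. It had the lowest Kcnc1 of its group, 125.9 CPM against 177 in the next library and 211 in the highest. Kcnh2 stood there at 22.87 CPM, below the next value of 33.0 and the highest of 37.1. Its Kcnip4 was the highest at 72.74 CPM, above 58.4 in the next and 43.3 in the lowest library.

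Among transgenic vehicle libraries, the astrocytic Kcnj10 was highest in library 6 at 436.4 CPM, with 366 in the next. Kcnj5 was highest in library 7 at 2.7 CPM, with 0.75 in the next. Kcne3 reached 1.233 CPM in library 9, with 0.698 in the next. Kcnma1 was lowest in library 5 at 77.64 CPM, with 106 in the next. Among vorinostat libraries, Kcnk13 was highest in library 3 at 9.595 CPM, with 7.71 in the next.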

How the results depend on the processing

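Every fit on the deposited counts called 0 potassium channel genes and 0 partner genes in the 3 contrasts, including DESeq2, limma-voom, both other filters, DESeq2 size factors, fits of only the groups compared and the 28 fits that each left out 1 library. Limma on the authors' adjusted log values called 2, 1 and 4 potassium channel genes in turn for transgenic against wildtype vehicle and for vorinostat against transgenic and against wildtype vehicle, and the cause was not tested. In the last it also called 8 of 43 partner genes, 3 higher and 5 lower, against 9.95% of all genes higher and 3.96% lower. With the replicate block, the counts stayed at 0 in each contrast. Among same-numbered pairs from different groups, 7 of 27 correlated above 0.1 (median 0.06, range -0.339 to 0.408). Among differently numbered pairs 68 of 234 did (median -0.014, range -0.528 to 0.588). Replicate numbers in the titles differ for some samples from those in the sample descriptions. These pairs and the replicate block therefore cannot decide whether samples were paired. With the longest transcript as length in place of merged exons, the summed wildtype level was 1201 RPKM instead of 961, and 9 of the 78 genes moved by over 1.5 times.

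Of 2142 values for 55 gene results, 2076 kept direction and side of the threshold, 4 newly passed it and 31 changed sign outside single left-out libraries, and the cause was not tested. For vorinostat against transgenic vehicle without the 4 libraries of high mitochondrial share, log2 fold changes were 0.0402 for Kcna1, 0.063 for Kcna2, 0.017 for Kcnd2, 0.12 for Kcnf1, 0.22 for Kcng1, 0.0017 for Kcnh1, -0.045 for Kcnip4, 0.12 for Kcnj6, -0.042 for Kcnk1, 0.016 for Kcnn2, 0.10 for Kcnq3, -0.069 for Kcnrg, 0.048 for Kcnt1 and -0.011 for Kcnv1, and -0.00027 for Kcnrg against wildtype vehicle. With the mitochondrial share as covariate they were 0.042 for Kcna2, 0.061 for Kcnf1, 0.13 for Kcng1, -0.018 for Kcnip4, -0.021 for Kcnj3, 0.032 for Kcnj6, -0.0077 for Kcnk1, -0.00201 for Kcnmb4, 0.037 for Kcnq3 and -0.012 for Kcnv1. On the authors' adjusted log values they were 0.0077 for Kcna4, -6.74e-05 for Kcnip4, 0.0024 for Kcnn2 and 0.013 for Kcnq3, and 0.047 for Kcnj5 in transgenic against wildtype vehicle, and by limma-voom -0.00570 for Kcnma1.

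Leaving out single libraries turned the sign of 7 gene results for vorinostat against transgenic vehicle. The ranges were -0.039 to 0.012 for Kcna4, -0.18 to 0.032 for Kcng1, -0.013 to 0.037 for Kcnj3, -0.048 to 0.055 for Kcnma1, -0.0295 to 0.0398 for Kcnmb4, -0.074 to 0.028 for Kcnq3 and -0.0172 to 0.0303 for Kcns2. The median standard error of 0.101 to 0.104 for the 78 genes limits what could be detected, and genes under 1 CPM, such as Kcnj14, Kcne3 and Kcnrg, rest on few counts.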

Other observations

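The authors' deposited table of 14 coexpression modules placed 80 of the 92 potassium channel genes, and no module held most of them. In the authors' deposited table, 17 of the 80 (21.2%) were in the blue module, which holds 8.92% of all 18014 genes listed, among them the axonal Kcna1 and Kcna2, the astrocytic Kcnj10 and the G protein gated Kcnj9. The cyan module of the authors' deposited table held 11 (13.8%, against 8.13% of all), including Kcnc1, Kcnf1, Kcnj4, Kcnj11 and Kcnt1. The green module held 10 in the authors' deposited table (12.5%, against 16.5% of all), including Kcng1, Kcnh2 and Kcnh3. The M-current gene Kcnq3 shared the brown module of the authors' deposited table with Kcnab2 and Kcnip2, while Kcnq5 was in blue. Kcnd2, its partner Kcnip2 and Kcnip4 were in 3 modules of the authors' deposited table, midnightblue, brown and lightcyan. Kcna3, Kcnd3, Kcnk9, Kcnma1, Kcnn2 and Kcnn3 were together in lightyellow in the authors' deposited table (7.5%, against 2.25% of all). The samples behind the modules are not given in the sources used here, so the modules are not taken as independent of the counts.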
